A study of Mus musculus with 36 samples.

Results

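The 3 Control embryonic stem cell (ESC) libraries and the 3 Control mouse embryonic fibroblast (MEF) libraries were compared with each other, 6 of the 36 mRNA-seq libraries of a series that otherwise follows Zfp266 knockout (KO) and reprogramming to induced pluripotent stem cells (iPSCs). They were chosen by their sample titles, and no measured value entered the choice. Per the study's methods both groups go back to Cas9 TNG MKOS ESCs, made from the E14tg2a line of 129 background, and carry Cas9, a Nanog reporter and a doxycycline-inducible reprogramming cassette. The Control MEFs, labelled wild type and strain 129, were passage 2 fibroblasts from E12.5 chimeric embryos made by morula aggregation with these ESCs, so cells of the host embryo may be among them. They received a non-targeting guide RNA by lentivirus and were harvested 96 h later, in medium with FGF2 and heparin. The Control ESCs were 3 libraries of 1 line, Clone J, labelled wild type, the parent of the KO ESC clones, grown in ESC medium with the cytokine LIF; their label names no guide RNA. Cell type, medium, guide transduction and any host-embryo cells differ together between the groups and cannot be told apart. Nothing in the labels says that the libraries of a group came from separate animals or derivations. The p-values rest on the spread between libraries within groups, estimated over all 36 libraries of the fit and not from these 6 alone.

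Embryonic stem cells are kept in a self-renewing state by a network of transcription factors around Pou5f1 (Oct4), Sox2 and Nanog, with LIF signalling through Stat3, and they resemble a compact epithelium. Fibroblasts are mesenchymal cells that secrete and remodel the collagen-rich extracellular matrix and pull on it through actin stress fibres and integrins. Reprogramming with Oct4, Sox2, Klf4 and Myc takes cells from the second state to the first. The difference between these groups bears on that distance, but it also holds the other differences between them given above.

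Total counts lay between 29898633 and 34472535 in the Control ESC libraries and between 19224103 and 31483041 in the Control MEF libraries. Among 13341 genes with a mean above 100 normalised counts (counts divided by a size factor per library), the median coefficient of variation was 6.38% in ESCs and 4.90% in MEFs. Pearson's r across those genes, on log2 normalised counts plus 1, was 0.994 for each pair of ESC libraries and between 0.994 and 0.995 for the MEF pairs, against 0.354 to 0.368 between an ESC and a MEF library; genes are not independent replicates. Both labels matched their markers. The summed level of 10 ESC markers was 7653 to 7885 TPM (a level corrected for exon length and library depth, computed from the counts) in ESC libraries and 7.81 to 8.91 TPM in MEF libraries. Dppa5a alone was at a mean of 4237 TPM in ESCs. The summed level of 11 fibroblast markers was 5664 to 5728 TPM in MEFs and 47.7 to 56.0 TPM in ESCs, most of it Vim. None of the 21 markers overlapped between the groups, but neither did 83.2% of all tested genes.

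Of 21436 genes tested, 11867 differed between Control ESCs and Control MEFs (55.4%; DESeq2, false discovery rate (FDR) < 0.05, log2FC > |1|). Of these, 5565 were higher in ESCs (26% of genes tested) and 6302 were lower (29.4%). The median log2FC over all tested genes was 0.05, and it was 0.11 to 0.14 higher when libraries were scaled by TMM or by total counts. With those scalings 50.2% to 51.1% of the differing genes were higher in ESCs, against 46.9% here, so which direction held the majority depended on the scaling. Differences were large as well as many: 119 genes rose and 207 fell by a fitted log2FC of 10 or more, and 1204 rose and 1561 fell by 5 or more. Of the differing genes, 922 were at 0 counts in every MEF library and 516 in every ESC library. Total counts went as low as 19224103 in MEFs and 29898633 in ESCs, so 0 was easier to reach in MEFs. For genes at 0 the fitted log2FC is a model estimate and the counts give at most a lower bound. Dppa2, for example, had a log2FC of 13.42 in the fit and 9.36 at its bound. 50% of the summed absolute difference in TPM lay in 585 genes. In 83.2% of tested genes the 3 ESC libraries did not overlap the 3 MEF libraries at all, so non-overlap by itself says little about a single gene here.

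**Figure D1:**
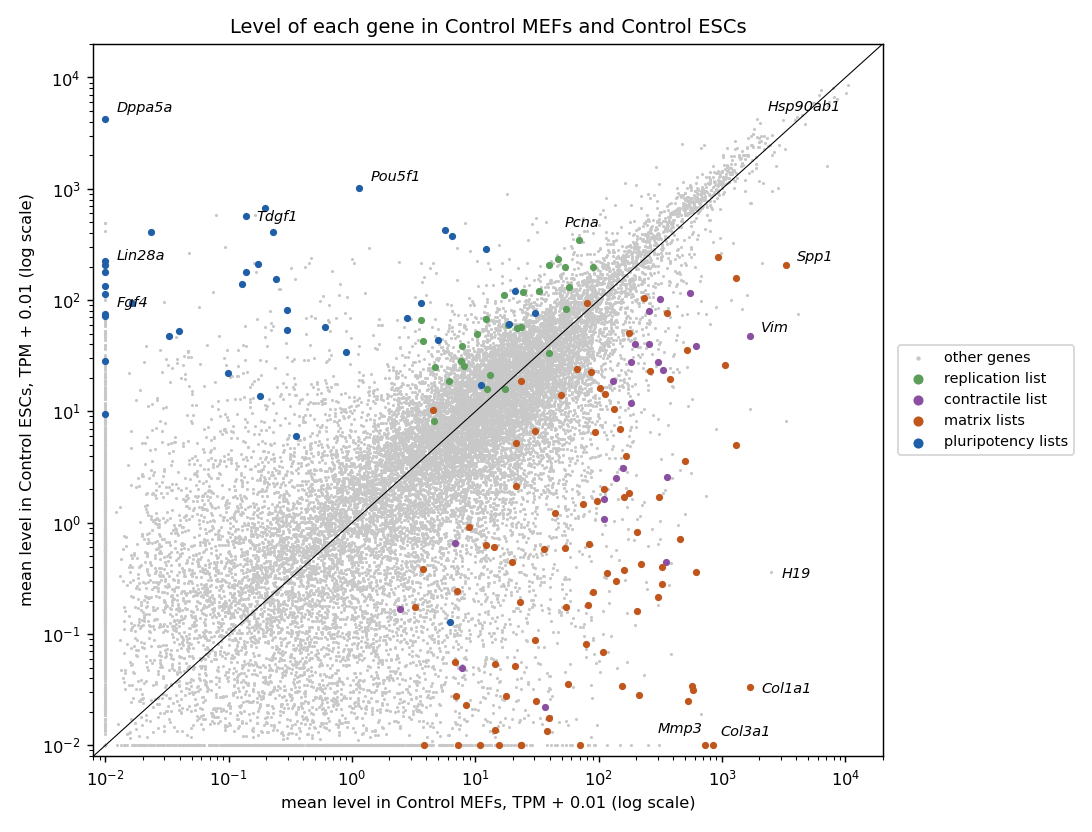
Mean level of each gene in Control MEFs (x axis) and Control ESCs (y axis), as TPM + 0.01 on log scales; each point is 1 gene, colours mark the lists named in the key and the line marks equal levels. The pluripotency lists sit far above the line, with Dppa5a at 0 TPM in MEFs and 4237 TPM in ESCs, and the matrix lists sit far below it, with Col3a1 at 0 TPM in ESCs and 843 TPM in MEFs.

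The promoters of 6 of these genes are shown because the genes mark the ends of the comparison: Lin28a, the second largest rise, and Pou5f1 and Zfp42, the most abundant of the naive transcription factors, then Col3a1 and Mmp3, the largest falls, and Vim, which had the largest TPM difference in the list of 22 contractile and cytoskeletal genes. Each sequence is from RefSeq on GRCm38.p6 and runs from 250 bases before the annotated start to 50 after it, read 5′ to 3′ on the gene's strand. Capitals mark matches, on either strand, to 4 motifs: the octamer core TTTGCAT, bound by Pou5f1 and its relatives, the AP-1 site TGANTCA, the TATA box TATAAA and the CArG box of serum response factor. The windows are Lin28a at chr4:134018767-134019066 (minus strand), Pou5f1 at chr17:35505782-35506081 (plus), Zfp42 at chr8:43306960-43307259 (minus), Col3a1 at chr1:45311288-45311587 (plus), Mmp3 at chr9:7445572-7445871 (plus) and Vim at chr2:13574061-13574360 (plus).
Lin28a: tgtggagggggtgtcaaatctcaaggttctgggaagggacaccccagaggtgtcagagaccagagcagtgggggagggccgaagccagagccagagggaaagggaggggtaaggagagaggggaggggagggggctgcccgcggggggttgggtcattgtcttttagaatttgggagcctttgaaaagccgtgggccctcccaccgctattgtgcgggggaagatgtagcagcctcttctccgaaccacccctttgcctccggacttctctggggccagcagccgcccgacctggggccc
Pou5f1: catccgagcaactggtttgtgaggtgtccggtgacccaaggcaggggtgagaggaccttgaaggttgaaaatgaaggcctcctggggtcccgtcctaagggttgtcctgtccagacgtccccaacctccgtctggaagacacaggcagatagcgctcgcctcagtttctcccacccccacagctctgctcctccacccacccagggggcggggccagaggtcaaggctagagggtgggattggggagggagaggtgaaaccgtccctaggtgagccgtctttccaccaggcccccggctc
Zfp42: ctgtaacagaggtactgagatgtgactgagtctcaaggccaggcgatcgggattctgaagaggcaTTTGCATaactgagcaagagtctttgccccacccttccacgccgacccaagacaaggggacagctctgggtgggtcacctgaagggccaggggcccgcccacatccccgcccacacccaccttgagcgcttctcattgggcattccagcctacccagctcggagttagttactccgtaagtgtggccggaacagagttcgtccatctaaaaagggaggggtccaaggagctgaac
Col3a1: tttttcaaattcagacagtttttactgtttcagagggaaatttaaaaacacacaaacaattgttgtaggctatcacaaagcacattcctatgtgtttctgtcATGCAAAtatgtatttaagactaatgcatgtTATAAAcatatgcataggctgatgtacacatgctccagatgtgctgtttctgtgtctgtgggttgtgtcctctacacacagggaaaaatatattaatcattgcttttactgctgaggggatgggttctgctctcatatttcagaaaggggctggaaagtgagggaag
Mmp3: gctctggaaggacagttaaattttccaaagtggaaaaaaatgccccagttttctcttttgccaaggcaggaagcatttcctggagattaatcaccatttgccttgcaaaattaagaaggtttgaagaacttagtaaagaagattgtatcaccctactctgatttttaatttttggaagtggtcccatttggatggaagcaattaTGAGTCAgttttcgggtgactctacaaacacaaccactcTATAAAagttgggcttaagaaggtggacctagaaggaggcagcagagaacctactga
Vim: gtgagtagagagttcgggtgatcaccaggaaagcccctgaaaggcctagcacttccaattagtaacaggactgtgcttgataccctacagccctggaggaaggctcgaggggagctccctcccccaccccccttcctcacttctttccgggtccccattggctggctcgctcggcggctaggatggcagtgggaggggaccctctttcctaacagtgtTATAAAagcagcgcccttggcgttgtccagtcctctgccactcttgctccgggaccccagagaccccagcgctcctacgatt
Of all 32851 RefSeq promoters of this length, 4.63% held the octamer core, 7.81% the AP-1 site, 13.6% the TATA box and 1.63% the CArG box. The Zfp42 window held an octamer core 185 bases before the start. The Col3a1 window held an octamer core 148 bases and a TATA box match 117 bases before the start. The Mmp3 window held an AP-1 site 46 bases and a TATA box match 7 bases before the start. The Vim window held a TATA box match 32 bases before the start. The Lin28a and Pou5f1 windows held none of these letters, which says nothing of the factors. The share of G and C was 63.3% in the Lin28a window, 62.7% in Pou5f1, 57.7% in Zfp42, 37.7% in Col3a1, 40% in Mmp3 and 59.3% in Vim. The median over all promoters was 52.7%. Lin28a, Pou5f1 and Zfp42 lay above it and Col3a1 and Mmp3 below it, but Vim, lower in ESCs, also lay above it. These 6 chosen genes are too few to relate the share to direction. Only 60.8% of tested genes had an entry, too few to compare whole sets of promoters. Dppa5a and Col1a1 had none.

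Most of the 12 genes with the largest rises were at 0 counts in every MEF library. In bulk libraries fewer cells of a type and less RNA per cell cannot be told apart. Dppa5a (chr9:78367052-78368177, GRCm38, minus strand), which encodes an RNA-binding protein of early embryos and germ cells, had 44986, 43498 and 38752 normalised counts in the ESC libraries and 0 in each MEF library. Lin28a, the RNA-binding protein that blocks maturation of let-7 microRNAs, had 13198, 13193 and 13634 in ESCs and again 0 in each MEF library. Against the 3 counts per library that a count of 0 allows, Dppa5a was at least 9829-fold and Lin28a at least 3092-fold higher in ESCs. Trh, which encodes the precursor of thyrotropin-releasing hormone, had 8879 to 9803 in ESCs and 0 in MEFs (at least 2164-fold higher). Tdh, the threonine dehydrogenase that feeds one-carbon metabolism in mouse ESCs, had 17150 to 17475 in ESCs and 1 count in 1 MEF library, a ratio of 37640 with an exact Poisson 95% interval of 6756 to 1486680, which covers counting error only. The other 8 leaders were Fgf4, the growth factor that ESCs make for themselves (at least 1344-fold), the chromatin proteins Dppa4, Utf1 and Dppa2 (at least 1116-, 1023- and 656-fold), Sall4, Triml2, the processed pseudogene Gm10323 and the long non-coding RNA Platr10. Their fitted log2FC lay between 13.42 and 14.45, and for those at 0 counts in MEFs only the bound is measured.

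Most of the 12 genes with the largest falls were at 0 counts in every ESC library. Col3a1 (chr1, GRCm38), the chain of type III collagen, had 0 counts in each ESC library and 114510, 125042 and 121421 normalised counts in the MEF libraries, at least 41707-fold lower in ESCs. Mmp3, which encodes the matrix protease stromelysin-1, had 0 in ESCs and 18449 to 19717 in MEFs (at least 6574-fold). Col1a1, the main chain of type I collagen, had 2.01, 0 and 5.21 in ESCs and 158060 to 165480 in MEFs, with a log2FC of -15.97 ± 0.66 (SE, n = 3 per group, DESeq2 FDR = 5.00e-129). Agtr2, the type 2 angiotensin receptor, had 11805 to 12851 in MEFs and 0 in ESCs; its estimate was the least certain of the leaders (log2FC -16.08 ± 2.25 SE). The remaining genes were Serpina3n, a secreted protease inhibitor, Tm4sf1, Pcdh7, a protocadherin, Slc14a1, a urea transporter, the matrix glycoproteins Tnc and Svep1, Mgp, an inhibitor of matrix calcification, and Dkk2, a secreted regulator of Wnt signalling. Their fitted log2FC lay between -14.60 and -15.85, and for those at 0 counts in ESCs only the bound is measured (-10.57 for Dkk2). None of the 24 leaders overlapped between groups, which the rule that chose them required. Exons on the opposite strand overlap Lin28a, Tdh, Sall4, Pcdh7, Tnc and Svep1, and as the strand setting of the counting is not given in the sources used here, reads of such partners cannot be told apart.

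**Figure D2:**
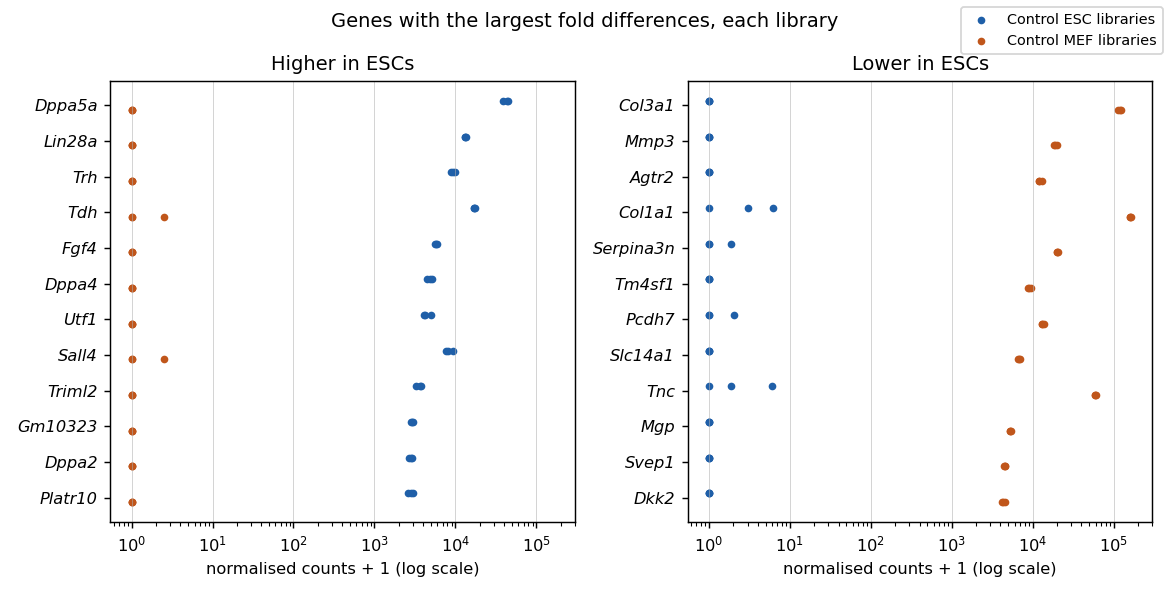
Normalised counts + 1 (x axis, log scale) in each Control library for the 12 genes with the largest rises (left) and the 12 with the largest falls (right) among genes with a mean of at least 1000 in the higher group; each point is 1 library, ESC in blue and MEF in orange. The groups are separated by more than 100-fold for each gene, and the lower group is at 0 to 5.21 normalised counts.

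Ranked by level instead of fold, the list changed from markers to housekeeping genes, since genes expressed in both cell types carried much of the difference. Dppa5a remained first on the ESC side at 4237 ± 168 TPM (SD, n = 3) against 0. It was followed by the chaperones Hsp90ab1, at 4268 ± 187 TPM in ESCs and 1906 ± 29.0 in MEFs, and Hsp90aa1, at 2506 ± 62.4 and 472 ± 5.36 TPM, and by Npm1, a nucleolar protein of ribosome assembly, at 2315 ± 88.1 and 672 ± 15.4 TPM. Ptma, Hspa8 and the enolase gene Eno1b were also among the 12, with log2FC of 1.07, 1.14 and 1.23, and Eno1b is a near copy of Eno1 whose value is uncertain. Pou5f1 was the one master transcription factor in this ranking, with 37886, 37201 and 36031 normalised counts in ESCs against 33.0, 51.5 and 26.5 in MEFs (1020 ± 17.5 TPM against 1.14 ± 0.422). The 4 others, Gm15459, Gm14681, Gm4735 and Gm12346, are annotated as processed pseudogenes and may hold reads of their parent genes, since how the authors treated reads with several matches is not given in the sources used here.

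On the MEF side the genes with large differences in level were of several kinds. The galectin Lgals1 (4127 TPM in MEFs, 74.5 in ESCs), the retinoic acid-binding protein Crabp1 (3297 TPM in MEFs, 8.11 in ESCs) and the secreted phosphoprotein Spp1 or osteopontin (3314 TPM in MEFs, 207 in ESCs) were among the protein-coding genes. H19, an imprinted non-coding RNA, stood at 2481 ± 141 TPM in MEFs and 0.349 ± 0.152 in ESCs. Vim, the intermediate filament of mesenchymal cells, was at 1686 ± 53.7 and 47.6 ± 4.35 TPM, so that ESCs kept a measurable level of it while Col1a1, at 1685 ± 30.2 TPM in MEFs, was nearly absent from them (0.0232 TPM). The calcium-binding proteins S100a6 and S100a11, the cytoplasmic actin Actg1, the non-coding RNA Bc1 and the processed pseudogene Gm12715 were also among the 12. Bc1 varied most between MEF libraries (5706, 5830 and 3823 normalised counts), but its lowest MEF value was above its highest ESC value of 759.

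Gene types differed in their split. Of 3359 pseudogenes tested 26.9% were higher and 8.78% lower in ESCs, of 15894 protein-coding genes 24.4% were higher and 34.3% lower, and of 653 lincRNAs 45.2% were higher and 21.4% lower. Pseudogenes took 15.8% to 16.7% of counts in ESC libraries and 10.4% to 10.7% in MEF libraries. Near copies moved with their source genes: Dppa5b and Dppa5c were at 491 TPM each in ESCs and at 0 in MEFs, like Dppa5a, and the pseudogenes Tdgf1-ps1 and Zfp42-ps1 were at 585 and 581 TPM, beside 574 TPM for Tdgf1 and 666 TPM for Zfp42. Values of these genes are uncertain to the extent that reads were split among copies.

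Among pluripotency genes, 16 of 17 naive transcription factors were higher in ESCs and none was lower, against 26% and 29.4% over all tested genes. The median log2FC of the 17 was 8.29 (8.0 with genes at 0 counts placed at their bound), against 0.05 over all tested genes. Pou5f1, Zfp42 (Rex1; 666 TPM in ESCs, 0.188 in MEFs), Sox2 (423 and 5.61) and Klf2 (288 and 12.2) were the most abundant. Nanog had 7434 to 7834 normalised counts in ESCs and 3.48 to 6.37 in MEFs, and Esrrb, an orphan nuclear receptor that sustains self-renewal, had 16502 to 18748 and 6.06 to 15.9. The reprogramming factor Klf4 was less cell-type restricted, at 76.1 TPM in ESCs and 30.1 in MEFs (log2FC 1.48). Tbx3 was the exception: its log2FC of 0.77 fell short of the threshold, with 1714 to 1989 normalised counts in ESCs and 1007 to 1144 in MEFs. Of 23 other pluripotency-associated genes, 22 were higher and 1 lower (median log2FC 10.77; 9.22 with bounds). Dppa5a, the Nodal co-receptor Tdgf1, Tdh and L1td1, an RNA-binding protein derived from a retrotransposon, were the most abundant. Fut4, the fucosyltransferase linked to the SSEA-1 surface antigen of ESCs, ran against its list, with 5.21 to 11.1 normalised counts in ESCs and 325 to 395 in MEFs. The 40 genes of both lists together took 1.11% ± 0.0231 of TPM in ESCs and 0.0128% ± 0.000253 in MEFs (SD, n = 3). Dppa5a, at a mean of 4237 TPM, was the largest part of that share in ESCs.

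Of 10 genes of the LIF pathway, on which mouse ESCs depend in culture, 2 were higher and 6 lower in ESCs: the kinases Pim3 (201 and 33.5 TPM) and Pim1 (83.4 and 15.4) rose, whereas the signal transducers Jak1 (8.14 and 96.3), Il6st or gp130 (18 and 98), Jak2, Ptpn11 and Stat3 (18.9 and 65.7) and the ligand Lif fell. The receptor Lifr, at 12.7 TPM in ESCs and 16.7 in MEFs, and the feedback inhibitor Socs3, at 79.0 and 116 TPM, did not pass. Over all genes 26% were higher and 29.4% lower, against 20% and 60% of the LIF list and 41.7% each way of the FGF list. FGF genes split evenly, with 5 higher and 5 lower of 12: the ligands Fgf4 (113 and 0 TPM), Fgf17 and Fgf15 were on the ESC side, with Fgf5 and the receptor Fgfr4, while Fgfr1 (10.6 and 47.5), Fgf7 (0.151 and 20.3), Fgf2 (0.0661 and 16.5), Fgf18 and Fgf10 were on the MEF side. The median log2FC of this list was -0.11 and changed sign with TMM or total-count scaling under DESeq2, with the counts of members unchanged. TGF-beta and BMP genes were lower as a group, 20 of 23 against 2 higher (median log2FC -4.41). They included the target Tgfbi (2.53 and 391 TPM), Id3 (16.3 and 174), the latency protein Ltbp1 (1.62 and 143) and the co-receptor Tgfbr3 (0.180 and 122), while the ligand Bmp4 (34.4 and 17.4 TPM) and the receptor Acvr2b (14.1 and 1.96) were higher in ESCs. Of 15 tested PDGF and insulin-like growth factor genes 11 were lower and 2 higher. Igfbp4 fell from 436 to 0.943 TPM and Igf2 from 384 to 0.0558 TPM between MEFs and ESCs, and Igfbp2 (191 and 13.0 TPM) and Pdgfb were the genes that rose. Pdgfra, the fibroblast receptor at 87.2 TPM in MEFs and 0.124 in ESCs, was given no p-value by DESeq2 and is not counted.

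Of 9 DNA methylation genes 7 rose and 1 fell (median log2FC 2.32). Dnmt3l, the cofactor of de novo methylation, stood at 177 TPM in ESCs and 0.156 in MEFs, its partner Dnmt3b at 68.8 and 0.953, and the demethylase Tet1 at 59.8 and 1.63, while Uhrf1, which recruits maintenance methylation to replicating DNA, stood at 209 and 46.4. Tet3 went the other way (0.903 and 7.11 TPM), and Dnmt3a, at 10.0 and 14.7 TPM, did not pass. Of 12 genes of Polycomb repressive complex 2, which methylates histone H3 at lysine 27, 7 rose, including the catalytic subunit Ezh2 (60.3 and 12.8 TPM), Eed (150 and 29.8) and the accessory subunits Epop (217 and 3.64), Mtf2 (136 and 12.2) and Jarid2 (88.8 and 11.9), and Phf1 fell (3.91 and 10.7). Of 17 subunits of the BAF remodeler 4 were higher and 4 lower, shares no greater than the 26% and 29.4% over all genes: Smarcd1 (71.2 and 16.5 TPM) and Actl6a (99.1 and 22.5) rose, and Smarca2 (0.0749 and 13.5), Smarcc2 (11.8 and 57.9), Smarcd3 and Arid1b fell, beside the ATPase Smarca4 at 65.3 and 113 TPM, which did not pass. In the nuclear lamina 3 of 7 genes were higher, among them Lmnb1 (262 and 84.4 TPM), and Lmna, the lamin of differentiated cells, was lower (9.34 and 276 TPM).

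Of 27 genes of replication licensing and the fork 21 rose and none fell (median log2FC 2.03), taking 0.238% ± 0.0107 of TPM in ESCs and 0.0697% ± 0.000219 in MEFs. Pcna, the sliding clamp, was at 348 and 69.1 TPM, and the helicase subunits Mcm3, Mcm5 and Mcm7 were at 235, 207 and 197 TPM in ESCs and 46.7, 39.2 and 53.6 in MEFs. The list of 21 cyclins and cell cycle inhibitors also holds the kinases Cdk1 and Cdk2, and Trp53. Of its members 7 rose and 11 fell (33.3% and 52.4%, against 26% and 29.4% over all genes). The share that rose was thus near that of all genes. Cdkn2a, the locus of p16Ink4a and p19Arf, had 42.2 to 62.8 normalised counts in ESCs and 7429 to 7984 in MEFs, a log2FC of -7.12 ± 0.21 (SE). Cdkn1a or p21 (11.9 and 380 TPM), Cdkn2b (1.02 and 314) and the D-type cyclins Ccnd1 (31.4 and 398) and Ccnd2 (0.693 and 194) were lower in ESCs too, whereas Ccnb1, Ccnb2, Ccne1, Ccna2, Cdk1, Cdk2 and Trp53 were higher.

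**Figure D3:**
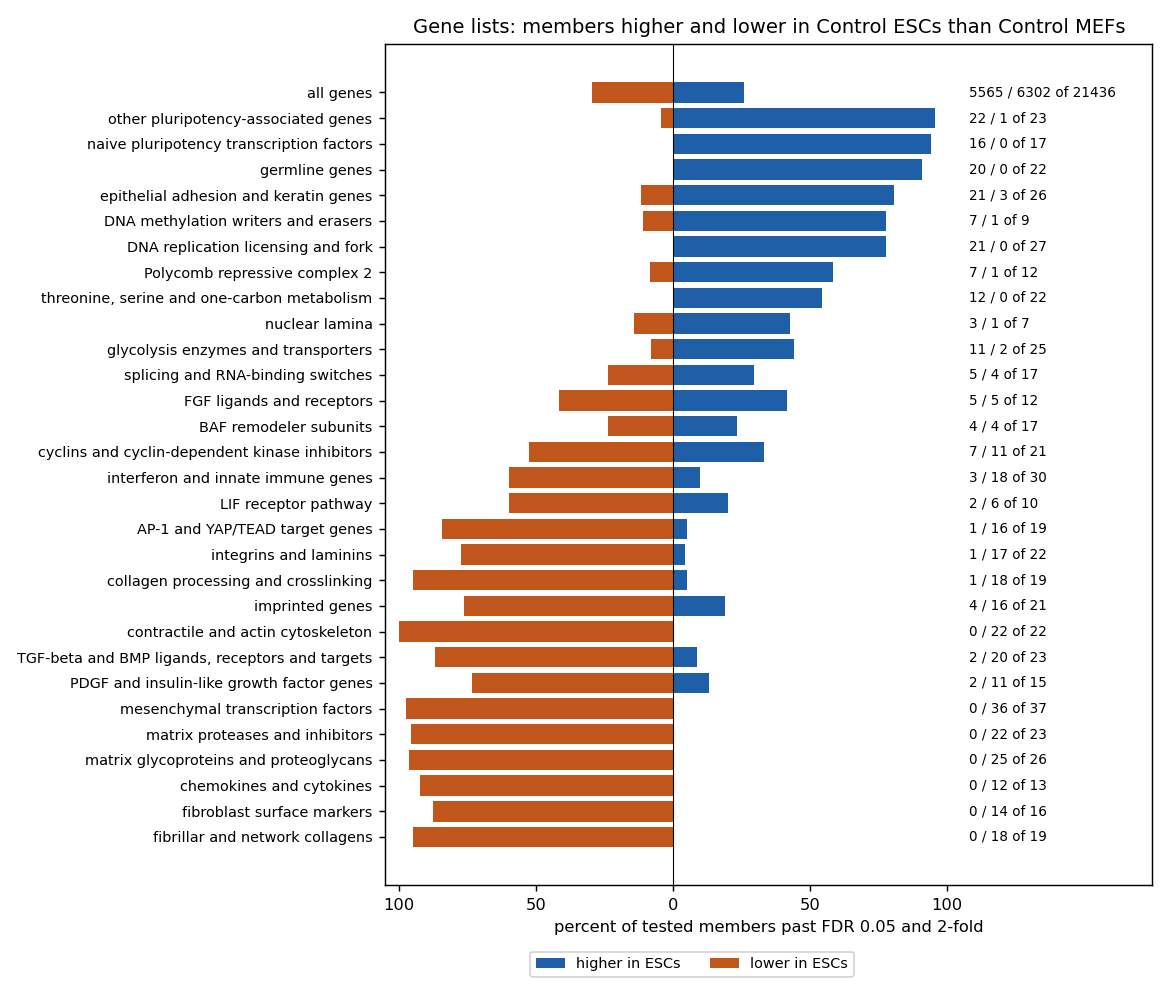
Percent of tested members of each gene list that were higher (blue, right) or lower (orange, left) in Control ESCs than in Control MEFs (DESeq2, FDR < 0.05, log2FC > |1|), ordered by median log2FC below the bar for all genes; numbers give members higher and lower of those tested. The 2 pluripotency lists and the germline list lie almost wholly on the ESC side, and the matrix, contractile and mesenchymal lists on the MEF side, against 26% higher and 29.4% lower over all genes.

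Matrix genes were lower in ESCs almost without exception. Of 87 tested genes in 4 lists, 83 were lower in ESCs and 1 was higher, against 29.4% and 26% over all genes. Together they took 2.19% ± 0.0255 of TPM in MEFs and 0.123% ± 0.00914 in ESCs. Of 19 collagens 18 were lower (median log2FC -10.26; -9.93 with bounds), led by Col1a1, Col3a1, Col1a2 (0.0239 and 571 TPM) and Col5a1 (1.69 and 305). The exception was Col18a1, a basement membrane collagen, at 106 TPM in ESCs and 233 in MEFs, which did not pass. Enzymes and chaperones of collagen were lower in 18 of 19 cases but by less (median log2FC -3.33): Serpinh1, the collagen chaperone, was at 4.94 and 1292 TPM, and P4hb, a prolyl hydroxylase subunit that also acts as a general disulphide isomerase, was still at 243 TPM in ESCs beside 924 in MEFs. Pcolce2 was the member that rose, with 749 to 801 normalised counts in ESCs and 267 to 341 in MEFs. Of 26 matrix glycoproteins and proteoglycans 25 were lower, among them Fn1 or fibronectin (156 and 1290 TPM), Sparc (26.1 and 1054) and Bgn (0.0217 and 577). Nid2, a basement membrane linker, at 94.3 and 80.6 TPM, did not pass. Of 23 matrix proteases and inhibitors 22 were lower, including Mmp3, Timp2 (0.352 and 612 TPM), Mmp2 (3.55 and 497) and Timp1 (19.5 and 381).

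The cytoskeleton and adhesion genes that bear on the matrix were lower as well. Among all tested genes, 26% were higher and 29.4% lower. All 22 genes of the contractile and cytoskeletal list fell in ESCs (median log2FC -3.81), from 0.628% ± 0.0112 of TPM in MEFs to 0.0586% ± 0.00437. The list is not of actin genes alone. It includes the intermediate filament genes Des and Vim, and Vim by itself was at 1686 TPM in MEFs and 47.6 in ESCs. Tpm4 (38.6 and 617 TPM), Flna (116 and 548) and Tagln (2.59 and 359) had the largest TPM differences after Vim, and Acta2, smooth muscle actin, was at 0.435 and 352 TPM. Of 22 integrins and laminins 17 were lower, with the common beta subunit Itgb1 at 76.4 and 638 TPM, and Lama1, the laminin chain of the early embryonic basement membrane, was higher (15.6 and 5.60 TPM). Of 19 AP-1 and YAP/TEAD genes 16 were lower, including Axl (0.877 and 271 TPM), Ccn1 (7.19 and 181) and Jun (3.79 and 135), and Ajuba was higher (89.3 and 29.5). Epithelial genes ran the other way, with 21 of 26 higher and 3 lower (median log2FC 3.48). Cdh1 or E-cadherin had 8098 to 9368 normalised counts in ESCs and 3.18 to 5.22 in MEFs, and Epcam (106 and 0.893 TPM) and Cldn4 (99.2 and 0.535) followed. Perp, Krt18 and Krt19 were lower in ESCs (13.4, 8.86 and 1.93 TPM, against 89.3, 74.5 and 66.3 in MEFs), and Krt8, the partner of Krt18, did not pass.

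The transcription factors of mesenchyme were almost uniformly on the MEF side. Of 37, 36 were lower and none higher (median log2FC -6.61), against 29.4% and 26% over all genes. Their levels were modest even in MEFs, with Twist1 at 119 TPM, Hic1 at 109, Prrx1 at 96.2 and Snai1 at 72.7, against 1.98, 0.0895, 0.00528 and 2.41 TPM in ESCs. The whole list took 0.0955% ± 0.00307 of TPM in MEFs, less than the 4127 TPM of Lgals1 alone. Ebf1, at 1.75 and 3.24 TPM, did not pass. In the list named fibroblast surface markers, 14 of 16 tested genes were lower. These included Thy1 (0.697 and 436 TPM), Ly6a (0.635 and 304), Cdh11 (0.0595 and 118) and S100a6, a calcium-binding protein that is not a surface marker.

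Of 30 interferon and innate immune genes 18 were lower in ESCs, 3 were higher and 9 did not pass. These were 60% lower and 10% higher, against 29.4% and 26% over all genes. Ifitm3 (101 and 1184 TPM), B2m, the light chain of class I antigen presentation (23.9 and 435), and the DNA sensor adaptor Tmem173 or STING (0.0635 and 78.4) fell. Ifitm1 (390 and 60.7 TPM), Bst2 (54.8 and 21) and Oas1a (5.02 and 0.265) rose. Of 13 tested chemokine and cytokine genes 12 were lower and none higher, with Csf1 (0.104 and 73.9 TPM), Ccl2 (0 and 58.5) and Cxcl12 (0.312 and 53.0) the most abundant.

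Of 25 glycolysis genes 11 were higher and 2 lower (44% and 8%, against 26% and 29.4% over all genes). The median log2FC was 0.92, and the list took 0.832% ± 0.0372 of TPM in ESCs and 0.474% ± 0.00458 in MEFs. Pkm was the most abundant at 1275 and 745 TPM, below the threshold, beside Eno1 (919 and 437 TPM), Pgk1 (1034 and 557) and Aldoa (974 and 559, below the threshold). The glucose transporter Slc2a3 (292 and 7.08 TPM) had a log2FC of 5.52. Hk1 (7.04 and 32.2 TPM) and Eno2 (1.52 and 6.29) fell, while Hk2 (118 and 37.2) rose. Because many members lay close to 2-fold, the count of those higher moved between 7 with the fold threshold inside the test, which called 41% of all genes, and 17 with FDR alone, which called 79.3%. Of 22 genes of threonine, serine and one-carbon metabolism 12 rose and none fell: Tdh, Gldc of the glycine cleavage system (140 and 0.794 TPM), Mthfd1 (130 and 36.5) and Mat2a, which makes S-adenosylmethionine (145 and 59.7), had the largest differences in level.

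Germline genes were higher in ESCs in 20 of 22 cases with none lower (median log2FC 6.04; 4.72 with bounds), at low levels. Sycp3, of the meiotic chromosome axis (69.8 and 0.490 TPM), Rhox5 (44.1 and 3.43), Tex19.1 (22.4 and 0.0190) and Tdrd12 (21.9 and 0.00553) led the list. Imprinted genes, expressed from 1 parental copy, were lower in 16 of 21 cases. H19, Igf2, Dlk1 (0.604 and 252 TPM) and Gnas (27.4 and 230) fell, and Impact (199 and 94.2), Phlda2 (52.8 and 0.878), Snrpn (41.1 and 5.73) and Meg3 (22.4 and 9.08) rose. Of 17 splicing and RNA-binding genes 5 were higher and 4 lower, near the 26% and 29.4% over all genes, or 8 and 4 with TMM or total-count scaling. The epithelial splicing factor Esrp1 (12.5 and 0.00761 TPM) rose with Lin28a, and Mbnl1, Mbnl2 (3.24 and 41.3), Celf2 and Rbfox2 (26.5 and 74.1) fell.

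On the sex chromosomes, Tsix, antisense to Xist, had 338 to 499 normalised counts in ESCs and 0 in each MEF library, at least 94.4-fold higher. Its gene overlaps Xist, which was at 0.116 TPM in ESCs and 0.189 in MEFs and did not pass. The Y-linked genes were present in both groups, with Ddx3y at 19.6 and 19.3 TPM, Eif2s3y at 35.5 and 14.0 TPM and Uty at 6.63 and 4.23 TPM. Kdm5d stood apart with 5.06 to 9.55 normalised counts in ESCs and 212 to 240 in MEFs. Of 30 genes tested on the Y chromosome, many of them near-identical copies, 22 were higher in ESCs and 1 was lower (73.3% and 3.33%, against 26% and 29.4% over all genes).

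Markers of other cells were low beside the values above. The 10 primitive endoderm markers summed to 5.56 to 7.45 TPM in ESCs and 138 to 145 TPM in MEFs, where Pdgfra, also a fibroblast gene, made up most of the sum. The 9 blood and macrophage markers summed to 11.9 to 16.2 TPM in ESCs and 26.0 to 31.3 TPM in MEFs, with Ptprc, Adgre1 and Lyz2 at 0 counts in ESCs and Cd14, at 13.4 TPM, the highest in MEFs. Endothelial (10 genes), trophoblast (8), muscle (7) and cartilage and bone (8) markers summed to at most 40.7 TPM in any library. Neural markers (10 genes) summed to 66.6 to 82.7 TPM in ESCs and 130 to 132 TPM in MEFs, with Nes and Tubb3 the highest. The 9 markers of primed epiblast and early mesoderm summed to 83.1 to 103 TPM in ESCs, most of it Dnmt3b with Otx2 at 15.7 TPM, and to 5.58 to 5.81 TPM in MEFs. Fibroblast RNA was scarce in ESC libraries, with Col3a1 at 0 counts.

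Where the ESC and MEF genes stood on the way from one cell type to the other was read from the Control reprogramming and iPSC libraries, which are in neither group compared but entered the size factors and dispersions of the fit. For each list the median position of its differing members was expressed as a percent of the distance from the MEF mean to the ESC mean on the log2 scale, so the ends are 0 and 100 by construction. Epithelial genes were at 97.8% to 101% in the day 5 libraries, whereas the pluripotency lists were at 37.6% to 42.4%. Pluripotency genes moved further by day 7 (63.4% to 69.0%), and germline genes were at 16.2% to 32.7% on that day. For comparison, all genes higher in ESCs were at 35.2% to 36.8% on day 5 and 46.0% to 49.9% on day 7. The 4 matrix lists together were at 47.2% to 50.8% on day 3 and 45.9% to 49.0% on day 7. That was near all genes lower in ESCs, at 46.1% to 50.2% and 49.8% to 50.7% on those days. The matrix lists differed among themselves: on day 7 collagens were at 29.0% to 30.4% and collagen processing genes at 58.3% to 64.8%. In iPSC clones the pluripotency lists stood at 100.1% to 100.2% and the matrix lists at 100% to 101%. The reprogramming cassette carries Pou5f1, Sox2, Klf4 and Myc, whose counts may include its transcripts at days 3 to 7. The day 3 to 7 cells were sorted, and the order of lists was not tested.

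**Figure D4:**
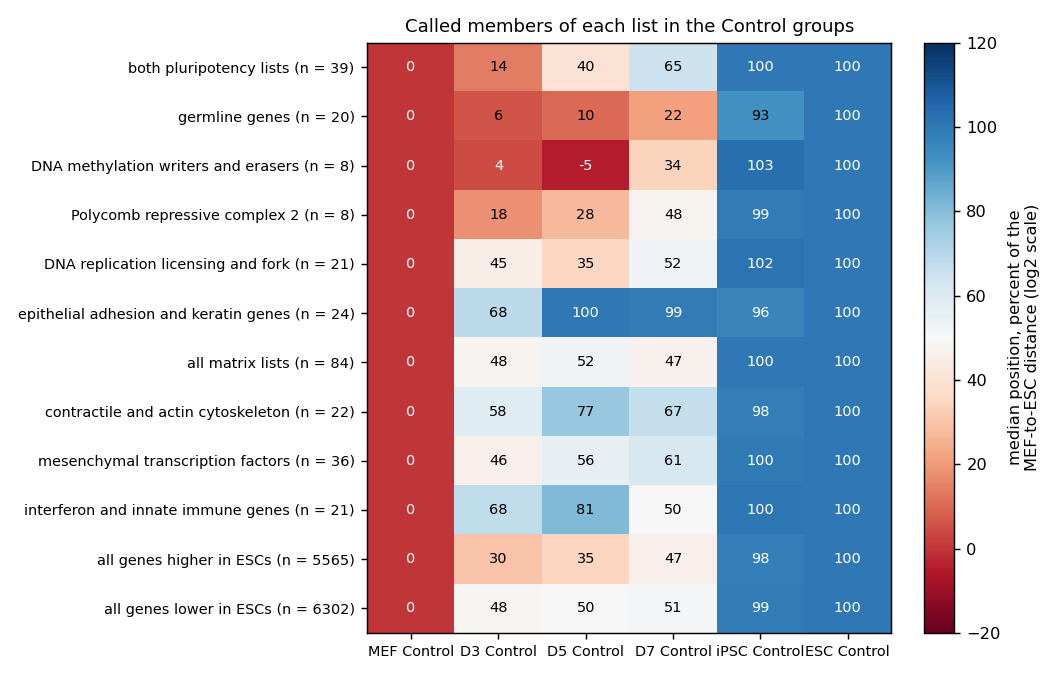
Median position of the differing members of each list (rows, number of members in parentheses) in the Control groups (columns), as percent of the MEF-to-ESC distance on the log2(normalised counts + 1) scale; MEF and ESC are 0 and 100 by construction. Epithelial genes reach the ESC end by day 5, pluripotency genes stand at 65 on day 7 and germline genes at 22. All genes higher in ESCs stand at 47 on day 7 and all genes lower in ESCs at 51.

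The same comparison was made in separate libraries, those labelled KO, which share no sample with the Control groups. The KO ESCs were 3 clones, and the KO MEFs were edited populations. Zfp266 itself had 1969 to 2222 normalised counts in the KO ESC libraries against 2238 to 2445 in Control ESCs, and 3072 to 3293 against 2828 to 3096 in MEFs, so the counts do not check the KO label: an edited gene can still be transcribed. The count of differing genes was again 11867 of 21436 (55.4%), 5649 higher and 6218 lower. Of these 10739 were shared with the Control comparison in the same direction, 90.5% of each list, and none was shared in the opposite direction. The pluripotency lists had a median log2FC of 10.46 in KO libraries beside 10.21 in Control, and the matrix lists -7.18 beside -7.07.

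A difference of the ESC to MEF contrast between Control and KO passed for 134 of 13953 genes (0.96%) by the DESeq2 interaction test. In Control the contrast was higher for 64 of them and lower for 70. Before the filter on mean counts that left 13953 genes, 3435 genes had an unadjusted p under 0.05 in that test. With edgeR 77 genes passed, and with the fold threshold inside the DESeq2 test 0 did. The number was 87 without MEF KO replicate 3, which stood apart from its group (r as low as 0.964), 234 and 215 without MEF KO replicates 1 and 2, 88 and 89 without Control ESC replicates 1 and 2, and 76 without ESC KO replicate 2. Of the 5 genes with the lowest FDR, 4 differed through the ESCs. Adprh, an ADP-ribosylarginine hydrolase, was at 2611 to 2703 normalised counts in Control ESCs and at a mean of 5115 in KO ESCs, beside 2957 and 2664 in Control and KO MEFs (log2 difference -1.10 ± 0.11 SE, FDR = 9.07e-20). The arginine and lysine transporter Slc7a1 was at 938 and 2825 in Control and KO ESCs (difference -1.88 ± 0.22), the cysteinyl-tRNA synthetase Cars at 2806 and 5416 (-1.03 ± 0.14) and the mitochondrial folate enzyme Mthfd2 at 1465 and 3568 (-1.47 ± 0.21). Rab30, a small GTPase of the Golgi, differed through the MEFs, with 419 in Control and 1185 in KO MEFs (2.0 ± 0.24). Between Control ESCs and Control MEFs themselves, none of the 5 passed the fold threshold (log2FC -0.82 to 0.73).

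**Figure D5:**
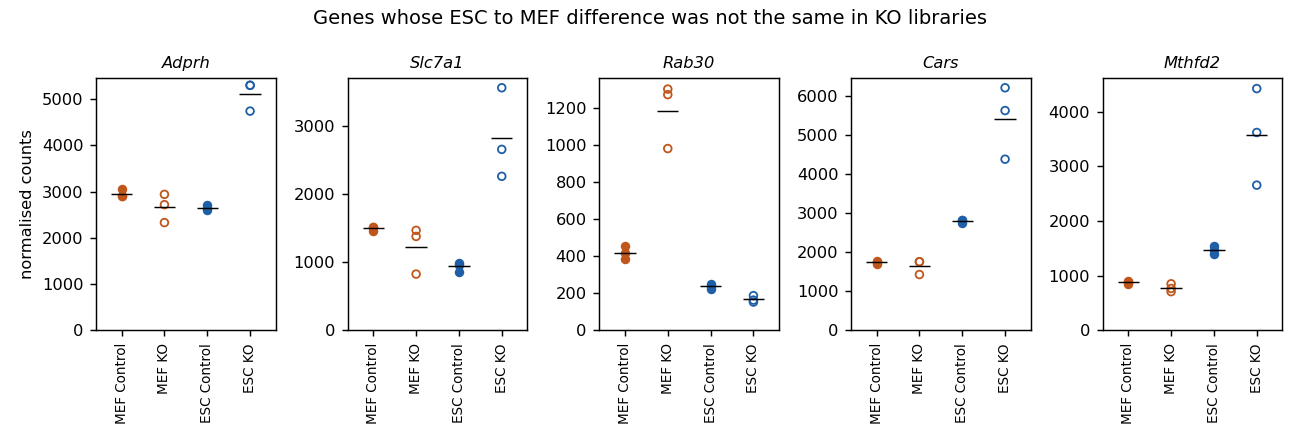
Normalised counts (y axes, from 0) in each library of the 4 groups for the 5 genes with the lowest FDR for a difference of the contrast; filled circles are Control, open circles KO, MEF in orange and ESC in blue, and bars are group means (n = 3). The KO ESC libraries lie above the Control ESC libraries for Adprh, Slc7a1, Cars and Mthfd2, and the KO MEF libraries above the Control MEF libraries for Rab30.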

How the data were processed

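Poly(A) RNA was sequenced in 36 libraries, 3 in each of 12 groups, and the 3 Control ESC and 3 Control MEF libraries are compared here. The authors deposited whole-number read counts per gene, made with FastQC, Cutadapt, STAR on GRCm38.p6 and Rsubread, and DESeq2 size-factor signal (normalised counts) and regularised log2 values made from them; aligner and counter versions, annotation release, strand setting and the treatment of multi-mapping reads are not given in the sources used here. Tests used the deposited counts. A DESeq2 1.42.0 Wald test on all 36 libraries with 1 factor of 12 groups (R 4.3.3) gave the ESC Control minus MEF Control difference, the same for KO, and the difference of both; Benjamini-Hochberg FDR below 0.05 and an absolute log2FC above 1 were required, without shrinkage. TPM were computed from counts and merged exon lengths of GENCODE M21, which matched 99.9% of genes. On simulated counts for the ESC Control against MEF Control comparison over 21442 genes, DESeq2 recovered 199 of 200 changed genes with 14 false calls. That simulation changed only well-expressed genes, in a fit of these 6 libraries called by FDR alone. It therefore does not test calls with a fold threshold in a comparison where 55.4% of genes differ.

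Named genes were the 12 with the largest log2FC per direction among genes with a mean of at least 1000 normalised counts in the higher group and no overlap between libraries, the 12 with the largest TPM difference per direction without overlap, up to 4 members per list by TPM difference with those against the list's majority, and the 5 lowest FDR of the interaction; other genes were named after their values were seen. A gene chosen by these rules is not reported here. The comparison, the gene lists and the rules were chosen with earlier results of these data known. Alternatives were edgeR 4.0.16, other size factors, filters and thresholds, a replicate block and leaving out libraries. Counts of 0 were set to a floor of 3 counts per library for fold bounds, and intervals are exact Poisson at 95%. Library preparation dates were not given by the labels, so a preparation batch and cell type cannot be told apart.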

Additional observations from a re-analysis of the deposited data

Results flagged for a closer look

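The ESC to MEF contrast differed between Control libraries and those labelled KO for 134 genes by the DESeq2 interaction test (FDR < 0.05, log2FC > |1|), which is what brought these results here. The difference, Control minus KO on the log2 scale, was -1.096 for Adprh. For Slc7a1 it was -1.88, for Cars -1.034 and for Mthfd2 -1.468, and in these 4 genes each KO ESC library was above each Control ESC library. For Rab30 it was 1.999, with each KO MEF library above each Control MEF library. The part played by clone, line or library preparation was not tested.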

How the results depend on the processing

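Of 644 alternative values for 46 named genes, 641 kept their direction and side of the threshold, 3 lost the call and 0 reversed; the 3 were Gm15459, Ptma and Hspa8, with the fold threshold inside the DESeq2 test. Of 435 alternative counts over 29 lists, 426 stayed within 1.5 times. The share of differing genes higher in ESCs was 50.2% with edgeR and with TMM size factors, 51.1% with total-count size factors, 43.7% with the fold threshold inside the test and 50.4% with FDR alone, which called 8565 genes higher. The number of genes whose contrast differed between Control and KO was 77 with edgeR, 0 with the fold threshold inside the DESeq2 test (3435 at an unadjusted p under 0.05 in the test without it) and 786 with FDR alone. Members higher in ESCs numbered 2 and 8 for BAF, 7 and 17 for glycolysis and 3 and 9 for splicing with the fold threshold inside the test and with FDR alone, and 8 for splicing with edgeR, TMM and total-count scaling. The matrix share in MEFs was 5.06% of total counts and 2.32% with the longest transcript, and the pluripotency share in ESCs 1.19% and 1.08%; the construction of the share changed, not the counts. Leaving out 1 library at a time gave 11527 to 11871 differing genes, 5326 to 5565 higher, 6201 to 6306 lower, 46.2% to 46.9% higher, 76 to 234 for the interaction, and shares of 2.18% to 2.20% and 1.10% to 1.12%. Leaving MEF KO replicate 3 out of the main comparison (11871 genes) was added after seeing the data. Same-numbered ESC and MEF libraries did not deviate together (r -0.0126, 0.0254 and -0.00571), so the numbers pair nothing; with a replicate block 5534 genes were higher and 6280 lower, 11814 in all, and 134 differed in contrast. Genes at 0 in a group allow bounds on the fold only.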
